A study of Mus musculus with 6 samples.

Results

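The regulators that drive and restrain cell division were followed in RAW264.7 cells grown in medium with low or normal sodium. They comprise cyclins, cyclin-dependent kinases (CDKs), the CDK inhibitors, the phosphatases and kinases that switch CDKs on and off, the retinoblastoma pocket proteins and the E2F family. The list held 40 genes, of which 39 were measured by a probe set annotated to exactly 1 gene, out of 18193 genes measured in all. Ccnb1 was not analysed here. Where several probe sets measured a gene, the brightest on average was used, and 38 of the 39 genes lay at or above the median gene in mean intensity, the exception being Cdkn1c.

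RAW264.7 is a transformed mouse monocyte-macrophage line whose cells cycle in culture and can form osteoclast-like cells. The low-sodium cells (3 arrays) were kept for 24 hours at 120 mmol/l sodium with mannitol holding osmolality at 290 mOsm/l, and the normal-sodium cells (3 arrays) at 137 mmol/l. The cytokines M-CSF (10 ng/ml) and RANKL (30 ng/ml), which promote osteoclast formation, appear in the treatment description next to low sodium, and it is not clear from it whether normal-sodium cells received them too. The labels speak of 4 biological replicates per medium, and 3 per medium were analysed here. Both groups are the same line.

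Progress through the cell cycle rests on CDKs bound to cyclins. In G1, cyclin D with Cdk4 or Cdk6 phosphorylates the pocket proteins and releases E2F factors, which switch on the genes of S-phase entry, and cyclin E with Cdk2 completes that step. Cyclins A and B with Cdk1 then carry the cell through G2 and mitosis, while CDK inhibitors hold these kinases back. Osteoclast precursors are known to leave the cell cycle as they fuse and mature.

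Values are log2(intensity + 1), called log2 intensity below, and every difference is low minus normal sodium on that scale. The replicate 3 arrays of both media stood apart, with spiked labelling controls averaging 8.50 and 8.54 there against 10.19 to 10.45 on the other 4 arrays, while hybridisation controls lay between 12.28 and 12.56 on all 6. Replicate 3 was therefore treated as a batch holding 1 array of each medium, and most differences are split into those of replicates 1 and 2 together and that of replicate 3. Macrophage markers were bright on every array, with a summed log2 level of 16.86 to 16.97 in low sodium and 16.76 to 16.81 in normal sodium. In the batch-term fit described below, which called 3.78% of all genes as higher in low sodium, 2 of the 8 rose and 0 fell. Adgre1 (F4/80) rose by 0.96 ± 0.10 (limma adjusted p = 0.00320, and 0.543 without the batch term). Mpeg1 rose by 0.48 ± 0.07 (adjusted p = 0.00723, and 0.609 without the batch term). Of 8 osteoclast markers 5 rose and 0 fell in the same fit, and without the batch term 0 were called. Their summed log2 level was 12.59 to 12.86 in low sodium and 9.57 to 11.04 in normal sodium. Only Atp6v0d2 had all 3 low-sodium arrays above all 3 normal-sodium arrays. It alone stood at 12.59 on low-sodium replicate 3, where the sum was 12.86. Acp5 did not pass, with -0.04 in replicates 1 and 2 and 2.17 in replicate 3. Of the 8, Calcr and Itgb3 were dim in both media, at means of 3.64 and 3.54 in low sodium and 3.09 and 3.77 in normal sodium. Of 6 measured stromal and lymphoid markers 0 passed in limma. In the batch-term fit 0 of them had an unadjusted p under 0.05, against 21.7% of all genes. Their summed level was 7.45 to 8.32 in low sodium and 7.33 to 8.24 in normal sodium. The part of the macrophage and osteoclast marker differences in the results below was not tested. RNA came from whole cultures, so fewer cells in a cycle phase and less of a transcript per cell cannot be told apart.

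Regulators of G2 and mitosis were lower in low sodium almost throughout, E2F factors were lower in part, and the G1 genes were split, with Ccnd1 and Cdk6 higher and Cdk4 lower. Of 39 members, 3 rose, 17 fell and 19 did not pass in a limma fit with a term for the replicate 3 batch and a trended prior (adjusted p under 0.05 over 18193 genes, Benjamini-Hochberg), called the batch-term fit. In that fit 7.6% of all genes were called, 3.78% as higher and 3.81% as lower in low sodium, and among genes at or above the median gene in mean intensity, where 38 members lie, 7.31% were higher and 7.45% lower. Without the batch term, limma with a constant prior called 0 of 39 members (14, or 35.9%, at an unadjusted p under 0.05, against 8.15% of all genes) and 1 gene in all, 0.0055%. The batch term with a constant prior also called 0 members and 2 genes in all, with 59% of members and 16.4% of all genes at an unadjusted p under 0.05. A trended prior with no batch term called 0 members and 40 genes in all, with 53.8% of members and 10.1% of all genes at an unadjusted p under 0.05. The words rose and fell below refer to the batch-term fit, which was taken up with its counts known. Fold changes of the 20 called members lay between 1.32 and 2.17, and their adjusted p without the batch term between 0.380 and 0.755.

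The arrays of the groups were separate for 20 members, not all of them called. All 3 low-sodium arrays lay below all 3 normal-sodium arrays for 16 members, against 9.07% of all genes, and above them for 4, against 8.44%. In replicates 1 and 2 alone, a trended fit called 25 of 39 members (64.1%), 4 higher and 21 lower, against 14.9% of all genes. In replicate 3, 24 of these 25 went the same way, against 79.9% of all genes called in replicates 1 and 2.

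**Figure D1:**
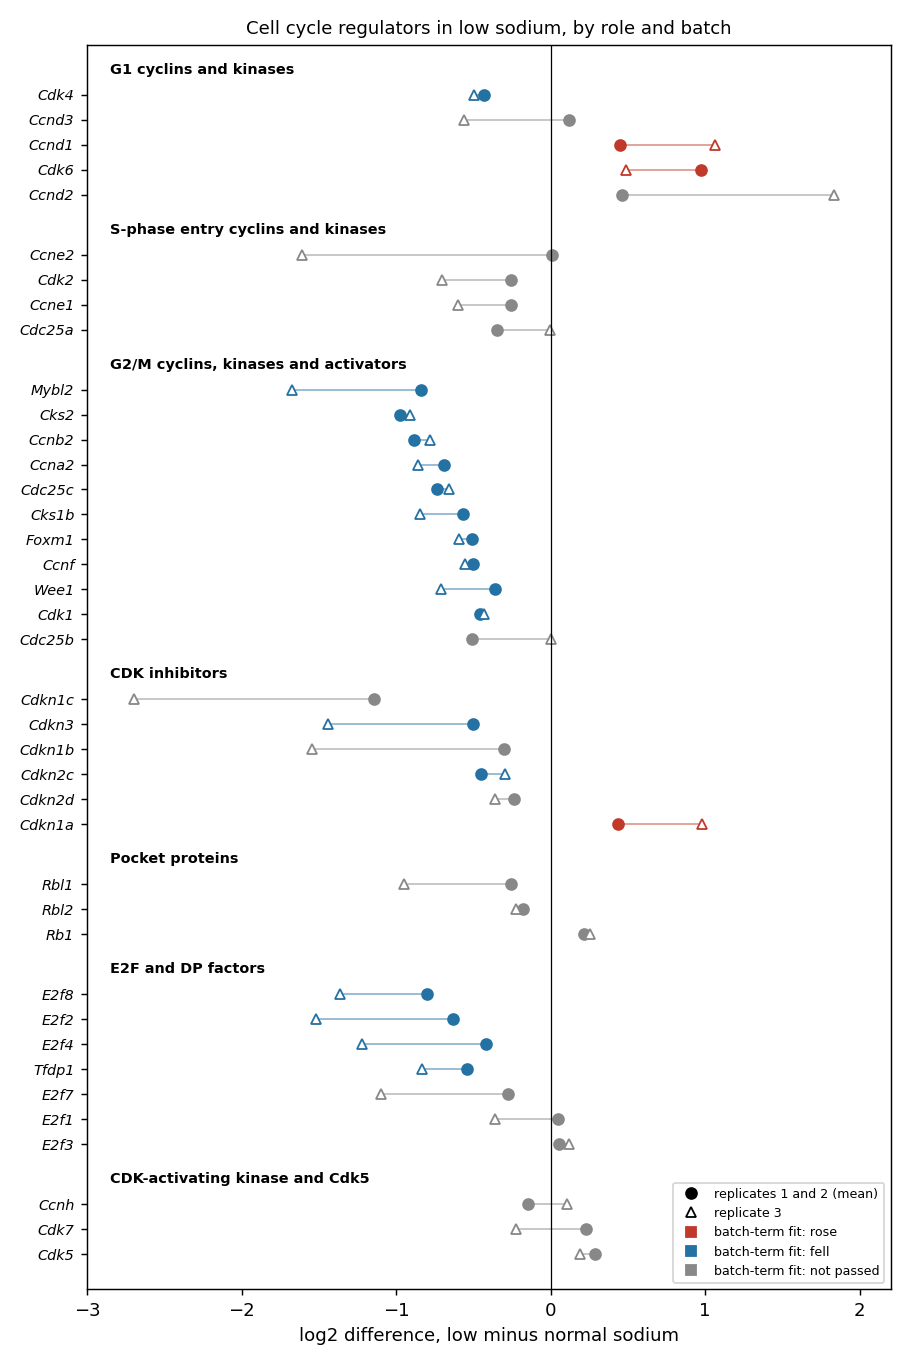
Log2 difference, low minus normal sodium, of the 39 measured regulators by role, as the mean of replicates 1 and 2 (filled circles) and in replicate 3 (open triangles), coloured by the call of the batch-term fit. The G2/M genes lie left of 0 apart from Cdc25b in replicate 3, and the G1 genes lie on both sides.

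Genes of the G1 kinases came out in opposite directions: Ccnd1 and Cdk6 rose, Cdk4 fell, and Ccnd2 and Ccnd3 did not pass. Ccnd1 encodes cyclin D1, which mitogens induce. It had log2 intensities of 13.61, 13.55 and 13.26 in low sodium, against 13.10, 13.16 and 12.20 in normal sodium, so every low-sodium array was higher. It rose by 0.65 ± 0.12 (SE, n = 3 against 3, limma adjusted p = 0.0210), and by 0.45 in replicates 1 and 2 and 1.06 in replicate 3. The Ccnd1 call was lost with median centring and without any 1 array of replicates 1 and 2, that is in 4 of 6 fits that left out an array. Its pair of other bright probe sets, bright meaning at or above the median probe set, gave 0.68 and 0.84.

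Cdk6, a partner kinase of the D cyclins, had 12.78, 12.82 and 11.33 in low sodium and 11.88, 11.77 and 10.85 in normal sodium. Both replicate 3 arrays were low, so the groups overlapped, but the low-sodium array was higher within each batch (0.98 in replicates 1 and 2, 0.49 in replicate 3). It rose by 0.81 ± 0.11 (adjusted p = 0.00588). Cdk4, the other partner kinase, went the opposite way, with 12.26, 12.33 and 12.60 in low sodium and 12.68, 12.78 and 13.10 in normal sodium. The groups did not overlap, and Cdk4 fell by 0.45 ± 0.06 (adjusted p = 0.00759), with -0.43 in replicates 1 and 2 and -0.50 in replicate 3. Its other bright probe sets gave -0.47 and -0.49, and those of Cdk6 gave 0.81 and 0.65.

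Ccnd2, the cyclin D2 gene, was dimmer, at 7.79, 7.43 and 8.25 in low sodium and 7.26, 7.03 and 6.41 in normal sodium. Its groups were separate, but the difference of 0.92 ± 0.32 did not pass (adjusted p = 0.141), being 0.46 in replicates 1 and 2 and 1.83 in replicate 3. Ccnd3, the cyclin D3 gene, had a difference of -0.11 ± 0.14 (adjusted p = 0.727), with 0.12 in replicates 1 and 2 and -0.56 in replicate 3. The D cyclins thus did not share a direction in replicate 3.

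**Figure D2:**
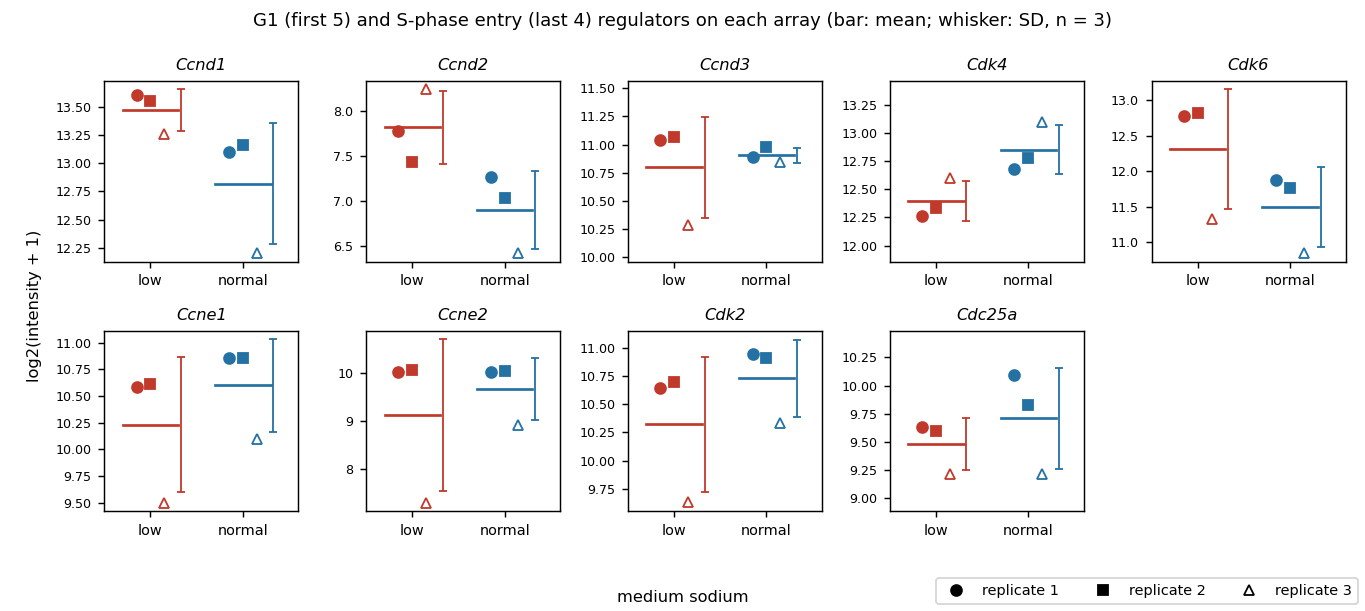
Log2(intensity + 1) on each array for G1 genes (upper row) and S-phase entry genes (lower row), low sodium left and normal sodium right in each panel, with means as bars and SD as whiskers (n = 3) and replicate 3 as open triangles. Axes differ between panels. Ccnd1, Ccnd2 and Cdk4 have separate groups, whereas the 4 S-phase entry genes overlap and are low on the replicate 3 arrays of both media.

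Of the 4 S-phase entry genes 0 passed the batch-term fit in limma. In that fit 2 had an unadjusted p under 0.05, against 21.7% of all genes. Without the batch term 0 did, against 8.15% of all genes. Ccne1, the cyclin E1 gene, differed by -0.37 ± 0.09 (adjusted p = 0.0604) and its partner kinase gene Cdk2 by -0.41 ± 0.11 (adjusted p = 0.0637), both close to the threshold. In replicates 1 and 2 alone both were called lower, each by 0.26 (adjusted p = 0.0223 for Ccne1 and 0.0228 for Cdk2, limma with a trended prior). For Cdk2 the mean of both its probe sets, the other of which was dim, gave 0.15 in place of -0.41. Cdc25a, a phosphatase that activates Cdk2, differed by -0.23 ± 0.12 (adjusted p = 0.330).

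Ccne2, the cyclin E2 gene, showed the widest gap between batches in this group. It had 10.02, 10.05 and 7.30 in low sodium and 10.01, 10.03 and 8.91 in normal sodium. The 4 arrays of replicates 1 and 2 were nearly level, whereas replicate 3 was low in both media and lower in low sodium, by 1.61. The resulting difference of -0.53 ± 0.30 did not pass (adjusted p = 0.367).

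Of 11 measured G2/M genes 10 fell, 0 rose and Cdc25b did not pass. Their median difference was -0.66, with -0.57 in replicates 1 and 2 and -0.71 in replicate 3, against -0.0081 over all 18193 genes. In 9 of the 11 the groups did not overlap, and all 11 were called lower in replicates 1 and 2 alone. Ccna2, Ccnb2, Cks1b and Cks2 kept their calls in all 6 fits that left out 1 array. Leaving out 1 of the replicate 3 arrays lets the batch term take up the other, so those fits equal that of replicates 1 and 2 alone. Ccnf, Cdc25c, Wee1 and Foxm1 lost their calls without any 1 array of replicates 1 and 2, in 4 of the 6 fits. Cdk1 lost its call in 3 fits and Mybl2 in 2.

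Cks2 had the smallest p of all members. It encodes a small subunit that docks CDK complexes to their substrates. Its log2 intensities were 11.45, 11.43 and 11.76 in low sodium, against 12.40, 12.43 and 12.67 in normal sodium, a gap on every array. It fell by 0.95 ± 0.06 (adjusted p = 0.000661), 1.94-fold, with -0.98 in replicates 1 and 2 and -0.91 in replicate 3. Its paralogue Cks1b, which also helps the ubiquitin ligase subunit Skp2 to recognise p27, had 13.45, 13.38 and 13.32 in low sodium and 13.96, 14.02 and 14.17 in normal sodium. It fell by 0.66 ± 0.08 (adjusted p = 0.00404), and its other bright probe set gave -0.98.

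Both measured cyclins that pair with Cdk1 fell too, Ccnb1 being not analysed here. Ccnb2, the cyclin B2 gene, had 11.37, 11.37 and 11.87 in low sodium and 12.23, 12.29 and 12.64 in normal sodium, and it fell by 0.85 ± 0.06 (adjusted p = 0.00104). Ccna2, the cyclin A2 gene, whose product acts in S phase and in G2, had 11.78, 11.87 and 12.22 in low sodium and 12.53, 12.50 and 13.09 in normal sodium. It fell by 0.74 ± 0.07 (adjusted p = 0.00188). For both genes the replicate 3 arrays were high in each medium, and the step between media was about the same size in both batches, at -0.89 and -0.78 for Ccnb2 and -0.69 and -0.86 for Ccna2. Ccnf encodes cyclin F, which works as a ubiquitin ligase subunit and not with a CDK. It had 9.98, 10.11 and 9.97 in low sodium and 10.46, 10.63 and 10.52 in normal sodium and fell by 0.52 ± 0.09 (adjusted p = 0.0155).

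Cdk1, the kinase that drives entry into mitosis, had 12.31, 12.38 and 12.31 in low sodium and 12.79, 12.82 and 12.74 in normal sodium. The spread within a medium was 0.04 (SD, n = 3) in both, and Cdk1 fell by 0.45 ± 0.06 (adjusted p = 0.00639), with -0.46 and -0.43 in the batches. The enzymes that set its phosphorylation were lower as well, on both sides of the switch. Cdc25c, a phosphatase that activates Cdk1, had 8.25, 8.33 and 8.92 in low sodium and 8.98, 9.06 and 9.58 in normal sodium. It fell by 0.71 ± 0.11 (adjusted p = 0.0121), the lowest normal-sodium array being just above the highest low-sodium one. Wee1, the kinase that inactivates Cdk1, had 9.72, 9.58 and 9.08 in low sodium and 9.95, 10.06 and 9.79 in normal sodium. Wee1 fell by 0.48 ± 0.11, close to the threshold (adjusted p = 0.0463). Cdc25b, another activating phosphatase, had 10.19, 10.29 and 11.02 in low sodium and 10.73, 10.77 and 11.01 in normal sodium. Its media differed in replicates 1 and 2 (-0.51, called there, adjusted p = 0.00238) but lay level in replicate 3, and the difference of -0.34 ± 0.12 did not pass (adjusted p = 0.139).

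Foxm1 and Mybl2, genes of transcription factors that switch on G2/M genes, were lower with them. Foxm1 had 9.70, 9.83 and 9.60 in low sodium and 10.29, 10.25 and 10.19 in normal sodium, separate groups, and fell by 0.54 ± 0.09 (adjusted p = 0.0129). Mybl2, which encodes B-Myb and is itself a target of E2F, had 9.34, 9.53 and 7.77 in low sodium and 10.23, 10.31 and 9.45 in normal sodium. Its groups overlapped because the normal-sodium array of replicate 3 was low too. Mybl2 fell by 1.12 ± 0.18 (adjusted p = 0.0118), 2.17-fold, with -0.84 in replicates 1 and 2 and -1.68 in replicate 3.

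**Figure D3:**
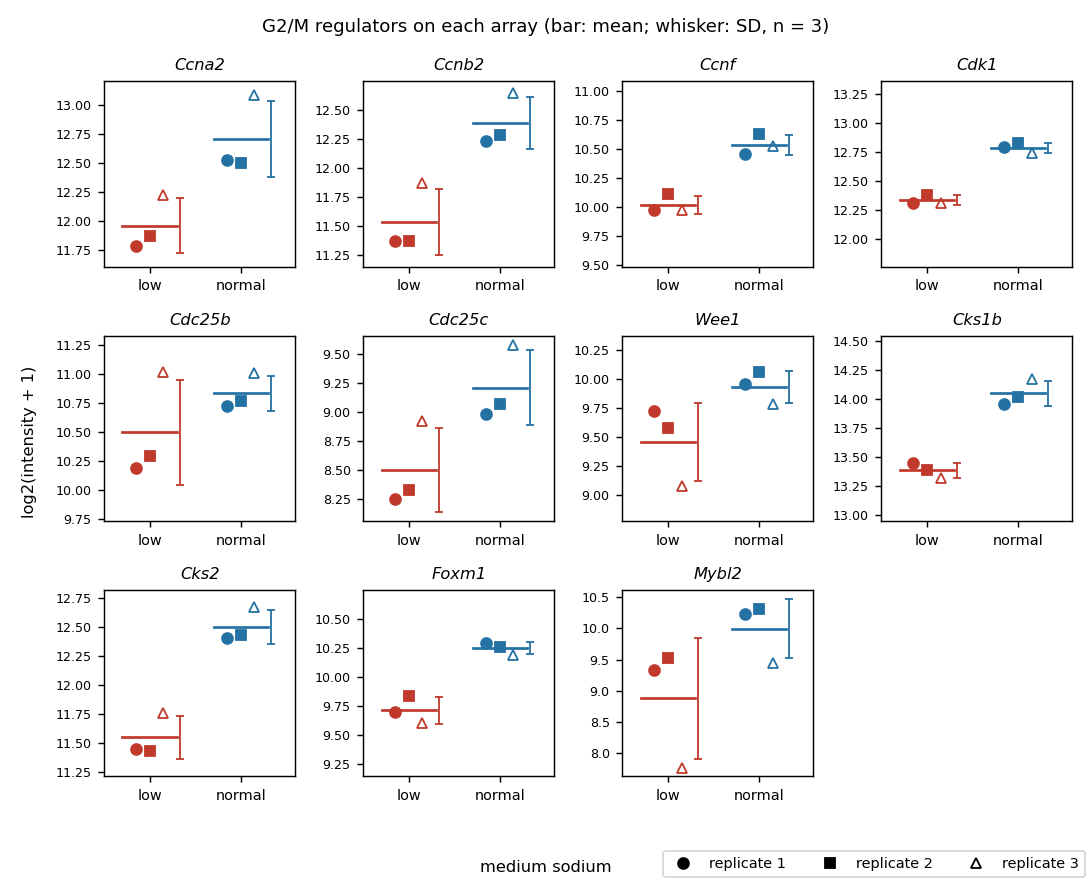
Log2(intensity + 1) on each array for the 11 measured G2/M genes, low sodium left and normal sodium right in each panel, with means as bars and SD as whiskers (n = 3) and replicate 3 as open triangles. Axes differ between panels. In all panels but those of Cdc25b and Mybl2 the 3 low-sodium arrays lie below the 3 normal-sodium arrays.

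G2/M genes are known to share promoter elements, namely the CHR (searched as TTTGAA or TTCGAA) and CCAAT boxes, and many S-phase genes carry E2F sites (searched as TTCCCGC, or TTGGCGC, or TTCGCGC, or TTGCCGC). Both strands were searched in the RefSeq promoters of assembly GRCm38.p6, which run from 250 bases before to 50 after each annotated start. A total of 28 members had a promoter in the table, and Ccna2 was not among them. As a match was required for printing, the printed stretches show where matches lie and not how common they were. The 250 bases before the start are printed 5′ to 3′ for the 6 members with the smallest p among those with a match. Matches are in capitals. They are Cks2 at chr13:51644982-51645231 (plus strand), Ccnb2 at chr9:70421555-70421804 (minus strand), Cks1b at chr3:89418292-89418541 (minus strand), Tfdp1 at chr8:13338501-13338750 (plus strand, the first of its 2 promoters), Cdk1 at chr10:69352913-69353162 (minus strand) and E2f8 at chr7:48881597-48881846 (minus strand).
Cks2: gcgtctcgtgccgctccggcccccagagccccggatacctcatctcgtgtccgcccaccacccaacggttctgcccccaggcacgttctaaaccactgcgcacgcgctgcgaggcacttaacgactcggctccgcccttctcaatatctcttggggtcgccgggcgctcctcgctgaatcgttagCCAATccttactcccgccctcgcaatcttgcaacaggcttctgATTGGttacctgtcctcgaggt
Ccnb2: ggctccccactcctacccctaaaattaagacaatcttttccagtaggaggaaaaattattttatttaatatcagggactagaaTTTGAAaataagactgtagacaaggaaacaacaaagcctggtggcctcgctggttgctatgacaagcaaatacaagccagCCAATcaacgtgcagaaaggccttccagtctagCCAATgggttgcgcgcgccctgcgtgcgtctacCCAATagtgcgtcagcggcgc
Cks1b: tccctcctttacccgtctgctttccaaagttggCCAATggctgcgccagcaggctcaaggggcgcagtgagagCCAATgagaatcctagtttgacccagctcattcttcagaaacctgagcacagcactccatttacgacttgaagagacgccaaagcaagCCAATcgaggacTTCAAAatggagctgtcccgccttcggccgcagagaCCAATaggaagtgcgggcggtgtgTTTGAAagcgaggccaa
Tfdp1: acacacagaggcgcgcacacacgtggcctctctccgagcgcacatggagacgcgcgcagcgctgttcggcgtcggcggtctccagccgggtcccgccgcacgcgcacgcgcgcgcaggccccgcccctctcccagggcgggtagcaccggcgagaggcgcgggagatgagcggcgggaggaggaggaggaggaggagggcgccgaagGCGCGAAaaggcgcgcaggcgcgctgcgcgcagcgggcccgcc
Cdk1: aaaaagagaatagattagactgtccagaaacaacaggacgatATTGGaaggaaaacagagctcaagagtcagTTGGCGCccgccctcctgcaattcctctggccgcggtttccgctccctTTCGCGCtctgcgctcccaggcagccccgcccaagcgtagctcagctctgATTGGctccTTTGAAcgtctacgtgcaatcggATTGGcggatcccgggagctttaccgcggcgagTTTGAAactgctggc
E2f8: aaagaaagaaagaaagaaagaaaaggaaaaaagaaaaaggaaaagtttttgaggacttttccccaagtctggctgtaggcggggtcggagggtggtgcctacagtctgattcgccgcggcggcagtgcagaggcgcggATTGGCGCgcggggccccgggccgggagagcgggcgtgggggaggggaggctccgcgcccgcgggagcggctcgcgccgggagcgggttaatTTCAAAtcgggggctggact

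Cks1b holds CCAAT at 217, 177, 89 and 41 bases before its start and CHR matches at 77 and 17. Cdk1 holds CHR matches at 71 and 15 bases before its start, CCAAT on the reverse strand (ATTGG) at 208, 80 and 48, and E2F matches at 178 and 130. Ccnb2 has 3 CCAAT boxes at 87, 54 and 21 and a CHR match at 167. In E2f8 the reverse CCAAT box at 112 overlaps the E2F match at 111, and in Cks2 only CCAAT boxes were found in this stretch. Over the whole window of promoters, 7 of the 12 members that fell and have a promoter held both CHR and CCAAT, as did 2 of the 13 that did not pass and 0 of the 2 that rose (Cdk6 and Cdkn1a). Among those that fell, Cdk4 and Mybl2 held no match of any kind. Of all 32851 promoters in the table, 19.2% held a CHR match, 37.4% a CCAAT box, 9.57% an E2F match and 7.52% both CHR and CCAAT. These shares are per promoter, whereas members were counted per gene, some with 2 promoters, so the units differ. These matches are letters in a window, and binding was not measured.

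The CDK inhibitors did not move together: Cdkn1a rose, Cdkn2c and Cdkn3 fell, and Cdkn1b, Cdkn1c and Cdkn2d did not pass. In limma all 6 had an unadjusted p under 0.05 in the batch-term fit, against 21.7% of all genes. Without the batch term 3 did, against 8.15% of all genes. Cdkn1a was above 0 in both batches and the other 5 were below 0 in both. Cdkn1a encodes p21, an inhibitor of cyclin E and cyclin A kinases that p53 induces. It had 13.11, 13.16 and 13.71 in low sodium, against 12.75, 12.64 and 12.73 in normal sodium, so the groups were separate. It rose by 0.62 ± 0.11 (adjusted p = 0.0195), with 0.44 in replicates 1 and 2 and 0.98 in replicate 3, and its other bright probe set gave 0.94. The Cdkn1a call was lost with median centring and in 3 of 6 fits that left out 1 array, namely low-sodium replicate 1, low-sodium replicate 2 or normal-sodium replicate 2.

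Cdkn2c, which encodes p18, an inhibitor of Cdk4 and Cdk6, had 10.82, 10.96 and 11.21 in low sodium and 11.44, 11.24 and 11.50 in normal sodium. The groups met closely without overlapping, and Cdkn2c fell by 0.40 ± 0.09 (adjusted p = 0.0359). Cdkn2d, which encodes the related p19, had 10.61, 10.75 and 10.35 in low sodium and 10.99, 10.83 and 10.71 in normal sodium, with overlap and a difference of -0.28 ± 0.09 that did not pass (adjusted p = 0.106). Cdkn3 encodes a phosphatase that acts on CDKs and is known to be transcribed with mitotic genes. It had 9.91, 9.72 and 9.37 in low sodium and 10.31, 10.32 and 10.81 in normal sodium and fell by 0.82 ± 0.18 (adjusted p = 0.0404), with -0.51 in replicates 1 and 2 and -1.44 in replicate 3.

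Cdkn1b, which encodes p27, had 9.09, 9.49 and 9.89 in low sodium and 9.64, 9.54 and 11.44 in normal sodium. The normal-sodium array of replicate 3 stood well above the other 5, and the difference of -0.71 ± 0.25 did not pass (adjusted p = 0.140), at -0.30 in replicates 1 and 2 and -1.54 in replicate 3. Cdkn1c, which encodes p57, was dim, with 2.45, 2.95 and 2.32 in low sodium and 4.45, 3.24 and 5.02 in normal sodium. Its groups were separate. Its difference of -1.66 ± 0.67 did not pass (adjusted p = 0.203) and was -0.73 with 16 in place of 1 added before the logarithm.

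**Figure D4:**
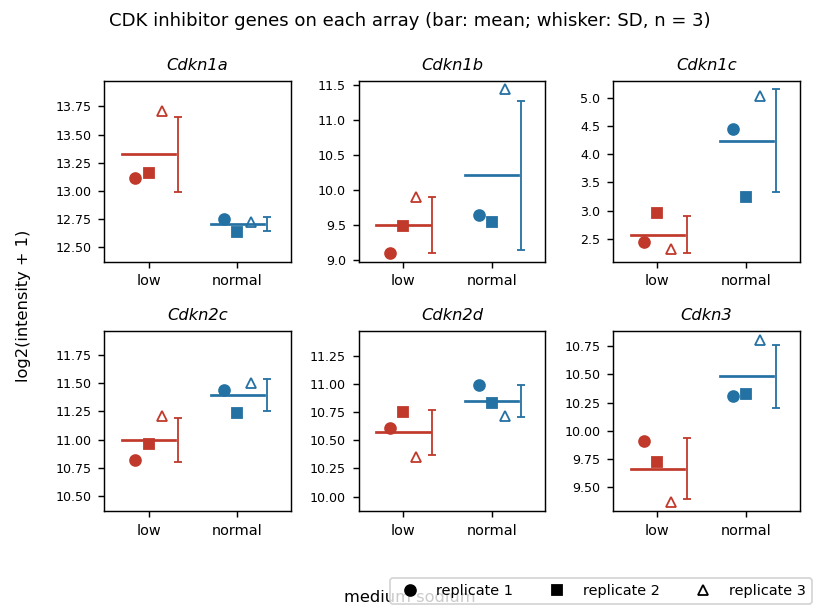
Log2(intensity + 1) on each array for the 6 CDK inhibitor genes, low sodium left and normal sodium right in each panel, with means as bars and SD as whiskers (n = 3) and replicate 3 as open triangles. Axes differ between panels. Cdkn1a is higher on the 3 low-sodium arrays, and Cdkn2c, Cdkn3 and the dim Cdkn1c are lower. The normal-sodium replicate 3 array of Cdkn1b stands at 11.44.

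Of 7 E2F and DP genes 4 fell and 3 did not pass. Tfdp1, which encodes DP1, the dimer partner of E2F factors, had 11.89, 11.87 and 11.45 in low sodium and 12.41, 12.42 and 12.29 in normal sodium, separate groups, and fell by 0.64 ± 0.08 (adjusted p = 0.00498). E2f8, an atypical E2F that represses E2F targets, had 9.77, 9.69 and 8.40 in low sodium and 10.61, 10.45 and 9.77 in normal sodium. It fell by 0.99 ± 0.13 (adjusted p = 0.00680), with -0.80 in replicates 1 and 2 and -1.36 in replicate 3, although the normal-sodium array of replicate 3 lay level with the highest low-sodium array. The other atypical member, E2f7, differed by -0.55 ± 0.19 without passing (adjusted p = 0.143).

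E2f2, an activating E2F, had 8.86, 9.10 and 7.75 in low sodium and 9.58, 9.64 and 9.26 in normal sodium and fell by 0.93 ± 0.19 (adjusted p = 0.0311). E2f4, which works with pocket proteins in repression, had 9.69, 9.80 and 9.13 in low sodium and 10.14, 10.18 and 10.36 in normal sodium. It fell by 0.69 ± 0.16, close to the threshold (adjusted p = 0.0481). Both had separate groups and larger steps in replicate 3, at -1.52 for E2f2 and -1.22 for E2f4. The activating factors E2f1 and E2f3 differed by -0.09 ± 0.13 (adjusted p = 0.774) and 0.08 ± 0.09 (adjusted p = 0.704), which did not pass.

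Of the 3 pocket protein genes 0 passed in limma. In the batch-term fit 2 had an unadjusted p under 0.05, against 21.7% of all genes. Without the batch term 0 did, against 8.15% of all genes. Rb1, the retinoblastoma gene, had 10.12, 10.04 and 10.14 in low sodium and 9.90, 9.82 and 9.88 in normal sodium. These groups were separate and tight, but the difference of 0.23 ± 0.08 did not pass (adjusted p = 0.159). The mean of both Rb1 probe sets gave -0.93, the other being dim. Rbl1, the p107 gene and an E2F target, differed by -0.49 ± 0.14 (adjusted p = 0.0850), with -0.26 in replicates 1 and 2 and -0.95 in replicate 3. Rbl2, the p130 gene, whose product is typical of resting cells, differed by -0.20 ± 0.10 (adjusted p = 0.303). Its 3 low-sodium arrays were 9.28, 9.47 and 10.26 and its normal-sodium arrays 9.50, 9.62 and 10.48, so replicate 3 was the high array in both media.

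**Figure D5:**
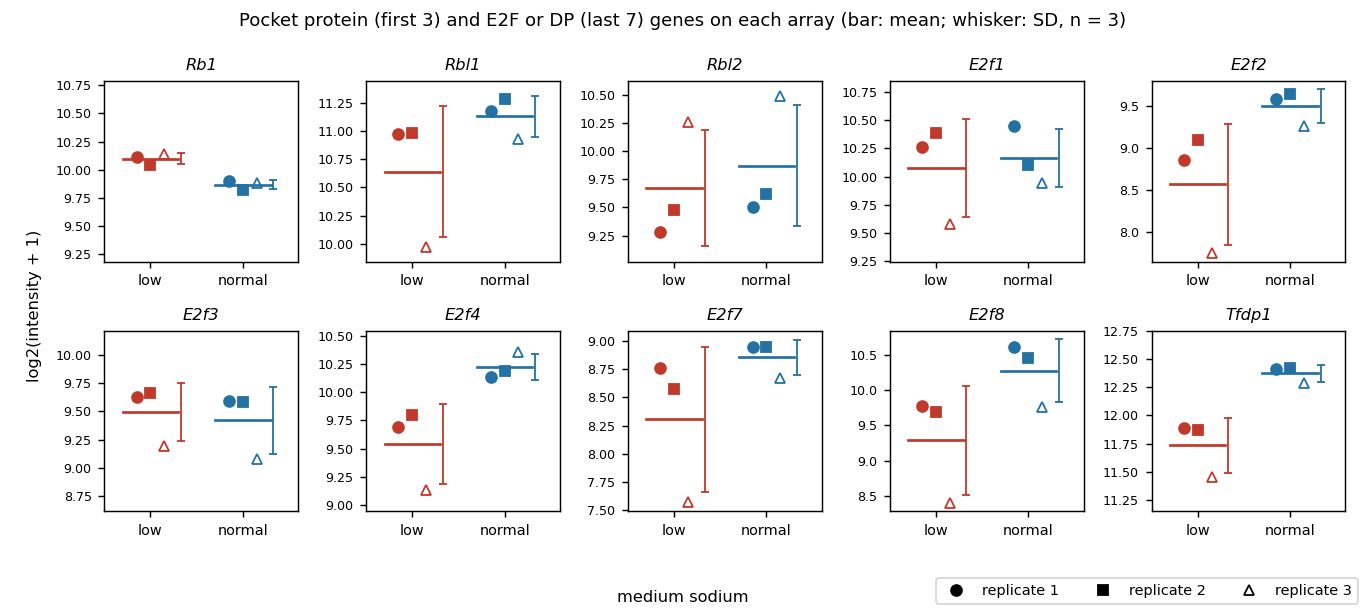
Log2(intensity + 1) on each array for the 3 pocket protein genes and the 7 E2F and DP genes, low sodium left and normal sodium right in each panel, with means as bars and SD as whiskers (n = 3) and replicate 3 as open triangles. Axes differ between panels. E2f2, E2f4 and Tfdp1 are lower on all 3 low-sodium arrays and Rb1 is higher on them.

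The genes of the CDK-activating kinase, which phosphorylates other CDKs and also serves in transcription, did not pass, nor did Cdk5. In limma 1 of the 3 had an unadjusted p under 0.05 in the batch-term fit, against 21.7% of all genes. Without the batch term 0 did, against 8.15% of all genes. Cdk7 differed by 0.08 ± 0.13 (adjusted p = 0.793) and its cyclin gene Ccnh by -0.06 ± 0.08 (adjusted p = 0.696). Cdk5, a kinase known mainly from neurons and not tied to cell division, differed by 0.25 ± 0.08 (adjusted p = 0.107).

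The medians of the role groups are set side by side here, and the difference between groups was not tested. The 5 G1 genes had a median of 0.65, with 0.45 in replicates 1 and 2 and 0.49 in replicate 3, and it was 0.34 without normal-sodium replicate 3. The 4 S-phase entry genes had -0.39, with -0.26 and -0.65, but -0.032 without low-sodium replicate 3 and -0.61 without normal-sodium replicate 3. The medians with an array left out carry no batch term, and without 1 array of replicate 3 the media are unbalanced over the batch. The 7 E2F and DP genes had -0.64, with -0.42 and -1.10. The 6 inhibitors had -0.56, with -0.37 and -0.90, and -0.34 without normal-sodium replicate 3, against -0.66 for the G2/M genes. The inhibitor median covers both directions, since Cdkn1a was above 0 and the other 5 were below it. Those 5 include the dim Cdkn1c, and Cdkn3, which is known to be transcribed with mitotic genes. The 3 pocket protein genes had -0.20, with -0.18 and -0.23, but 0.11 without normal-sodium replicate 3. The 3 genes of the CDK-activating kinase and Cdk5 had 0.08. All genes had 0.0224 in replicates 1 and 2, and -0.0622 in replicate 3.

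Whether the difference between media itself differed between batches was tested in limma with an interaction of medium and batch and a trended prior. The test called 13 of 39 members (33.3%), against 10.1% of all genes. A constant prior called 0 members (13, or 33.3%, at an unadjusted p under 0.05, against 18.6% of all genes). Its spread comes from replicates 1 and 2 alone, since replicate 3 holds 1 array per medium. The G2/M genes gave 2 of the 13, Cdc25b and Mybl2, and for the other 9 of them the adjusted p lay between 0.0703 and 0.870.

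A separate list of 34 other cell cycle regulators, made of further cyclins, CDKs and E2Fs, subunits of the MuvB complex and regulators of protein degradation, was described beside them. In it 1 rose, 4 fell and 29 did not pass (11.8% lower, against 3.81% of all genes), and its median was -0.08. The MuvB subunits in it were all among the 29 that did not pass. Cdc20, which activates the anaphase-promoting complex, fell by 0.80 ± 0.06 (adjusted p = 0.00126), and Fbxo5, which inhibits that complex, by 0.60 ± 0.08 (adjusted p = 0.00759). Skp2, the ubiquitin ligase subunit that recognises p27, fell by 0.57 ± 0.09 (adjusted p = 0.00986) and Ccni by 0.47 ± 0.11 (adjusted p = 0.0476). Cdk14, a kinase of the cell cycle and of Wnt signalling, rose by 0.36 ± 0.08 (adjusted p = 0.0389). Pkmyt1, a kinase that like Wee1 inactivates Cdk1, differed by -0.38 without passing (adjusted p = 0.0896). Its other bright probe set went the opposite way.

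The calls depend on the arrays used. Of the 20 called members, 7 were called again in each fit that left out 1 array, namely Ccna2, Ccnb2, Cks1b, Cks2, Cdk6, E2f8 and Tfdp1. The number called again was 7, 8 and 20 without low-sodium replicate 1, 2 or 3 and 11, 7 and 20 without normal-sodium replicate 1, 2 or 3. Both fits without a replicate 3 array equal the fit of replicates 1 and 2 alone. All 18 other bright probe sets of called members, belonging to 14 genes, went in the direction of the chosen probe set.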

How the data were processed

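The arrays were of the Affymetrix type and carried biotin-labelled cDNA made from total RNA, per the labels. What the authors deposited was a linear intensity for each of 45101 probe sets. The submitters' processing notes name Partek, and how probes were summarised is not stated there. A trimmed mean of 499.8 was found on all 6 arrays, so they had been scaled alike before deposit. The number of arrays limits the precision.

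The deposited intensities were converted to log2 after adding 1. The 64 control probe sets were left out, 34945 of the other 45037 carried 1 gene, and symbols were updated through RefSeq identifiers. Each of 18193 genes was represented by its brightest probe set. Media were compared in R 4.3.3 by limma 3.58.1 (two-sided, Benjamini-Hochberg over all genes, adjusted p under 0.05). The first fit had a constant prior and no batch term. The batch-term fit had a trended prior and a term for replicate 3 against replicates 1 and 2. The members, the lists and the batch-term fit were chosen with earlier results of these data known. All 40 listed genes are accounted for, Ccnb1 as not analysed here. Values on every array are given for members called, members with separate groups and all inhibitors, 6 other regulators are named by the smallest p, and promoters are printed for the 6 members with the smallest p and a match. Both fits were run on arrays simulated from the batch-term fit itself. Such arrays cannot show whether its model holds for the real ones. Same-numbered arrays of the media deviated together at correlations of 0.10, 0.08 and 0.24. Replicate 1 of a medium against replicate 2 of the other gave 0.095 and 0.090, so the numbers were not taken to pair these. Replicate 3 of a medium against replicates 1 and 2 of the other gave -0.16 to -0.13. A fit with a term for each replicate number, called the replicate block, was run beside the others.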

Additional observations from a re-analysis of the deposited data

Results flagged for a closer look

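For 13 members the difference between media was not the same in replicate 3 as in replicates 1 and 2 by the limma interaction test with a trended prior (adjusted p under 0.05), and a constant prior called 0 of them. Values are the replicate 3 difference minus that of replicates 1 and 2, on the log2 scale. Among G1 and S-phase entry genes they were 0.62 for Ccnd1, -0.68 for Ccnd3, -0.49 for Cdk6, -1.62 for Ccne2 and -0.44 for Cdk2. Among G2/M genes they were 0.51 for Cdc25b and -0.84 for Mybl2, and among inhibitors 0.54 for Cdkn1a, -1.24 for Cdkn1b and -0.93 for Cdkn3. Rbl1 had -0.70, E2f2 -0.88 and E2f4 -0.80. For a further pair of genes, Ccnh and Cdk7, both low-sodium arrays of replicates 1 and 2 lay on one side of the normal-sodium arrays and replicate 3 went the other way. Their values of 0.25 for Ccnh and -0.45 for Cdk7 did not pass the interaction test (adjusted p = 0.109 and 0.182). Replicate 3 holds 1 array per medium, so a difference between batches and variation of those arrays cannot be told apart.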

How the results depend on the processing

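Without the batch term 0 of 39 members were called under each pseudocount, scaling, filter and array left out that was run, and the calls of that comparison became 25 in replicates 1 and 2 alone, 20 with the batch term and trended prior and 11 with the replicate block and trended prior. With the batch term and trended prior, 20 members (3 higher, 17 lower) became 13 (1 higher) with median centring, which ended the calls of Ccnd1, Cdkn1a, Cdk4, Ccnf, Cdk1, Wee1 and Cdkn2c, and the mean of all probe sets gave 11 lower. A constant prior gave 0, and leaving out the batch term gave 0. The replicate block gave 11 (1 higher, 10 lower), without Ccnd1 and Cdkn1a (adjusted p = 0.0641 and 0.0618 in limma) and without Cdc25c, Wee1, Foxm1, Cdkn2c, Cdkn3, E2f2 and E2f4 (0.0511 to 0.126). Leaving out 1 array gave 7 to 25 called, 1 to 4 higher and 6 to 21 lower. Quantile normalisation called the same 20 members, and a pseudocount of 16 called 18 of them. Centring put the median of all genes at -0.0973 in replicates 1 and 2 and 0.164 in replicate 3, in place of 0.0224 and -0.0622. No member changed direction over all arrays under either scaling. Group medians with 1 array left out were taken without the batch term, so the batches weigh unequally between the media. They ran from 0.34 to 0.82 for G1 genes, -0.61 to -0.032 for S-phase entry genes and -0.76 to -0.48 for E2F and DP genes. The ranges were -0.71 to -0.55 for G2/M genes, -0.69 to -0.34 for inhibitors and -0.38 to 0.11 for pocket proteins. For the CDK-activating kinase and Cdk5 the range was -0.032 to 0.14. Replicates 1 and 2 alone gave -0.57, -0.37 and 0.23 for G2/M genes, inhibitors and the CDK-activating kinase group, which had 0.16 with the mean of all probe sets. Uncalled members that changed sign were Ccnd3 (0.12), Ccne2 (0.010) and E2f1 (0.051) in replicates 1 and 2 alone or without a replicate 3 array, Cdk7 without low-sodium replicate 2 (-0.039) or normal-sodium replicate 1 (-0.017), and, with the mean of all probe sets, Cdk2 (0.15) and Rb1 (-0.93). With 1 array left out, the batch-term fit gave -0.20 to 0.12 for Ccnd3 and -0.69 to 0.010 for Ccne2. It gave -0.22 to 0.051 for E2f1 and -0.039 to 0.23 for Cdk7. The cause was not tested. Dim genes such as Cdkn1c have differences that depend on the added value.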

Other observations

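In both media the replicate 3 arrays were lower than the mean of replicates 1 and 2 for all 4 S-phase entry genes, by 0.40 to 2.73 on the log2 scale in low sodium and 0.59 to 1.11 in normal sodium. Rbl2 was higher there in both, by 0.88 in low sodium and 0.92 in normal sodium. On the normal-sodium array of replicate 3, Cdkn1b stood at 11.44 and Ccng2, a cyclin gene linked to resting cells, at 12.06, while their other 5 arrays lay between 9.09 and 9.89 for Cdkn1b and between 9.28 and 10.01 for Ccng2.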
